A study of Mus musculus with 16 samples.

Results

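Mitosis and spindle genes are a list of 40 genes, from the cyclin-dependent kinase Cdk1 to the proliferation marker Mki67, whose proteins drive and carry out the separation of chromosomes in a dividing cell. They were read in heart RNA of C57BL/6 mice, a common inbred laboratory strain, and members were the probes whose gene name on the array equals a listed symbol. All 40 were on the array, with 58 probes, among 34844 gene and probe names in all. Probes entered the tests if some group had all 4 of its arrays well above background, and 37 members were then among the 22648 features tested. Ttk, Cenpf and Aurkb, a checkpoint kinase, a kinetochore protein and the kinase of the chromosomal passenger complex, did not pass: Aurkb was well above background on 0 arrays, Ttk on 2 and Cenpf on 5.

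The study modelled post-traumatic stress by social defeat, in which mice sat in a wire mesh box inside the cage of an aggressor mouse for 6 hours a day and were placed with it for short bouts of attack. The protocol text speaks of 5 or 10 days of this, whereas the sample labels give 1 to 3 days, which are used here. T1R1 mice had 1 day of exposure, T2R1 mice 2 days and T3R1 mice 3 days, each followed by 1 day of rest. Control mice sat in such boxes in a cage with no aggressor, and their labels give 2 days and 1 day of rest, so the controls are not matched in time to T1R1 or T3R1. Each group had 4 hearts of individual mice, and age and sex are not given in the labels used here. Levels are log2 intensities relative to the 75th percentile of the same array, so 0 is the brightness of that percentile and a difference of 1 is a 2-fold difference, and levels are not compared between genes.

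Cyclin B with Cdk1 starts mitosis, the kinases Plk1 and Aurka mature the spindle poles, and kinesin motors build the spindle. Kinetochore proteins such as Ndc80 and Nuf2 tie chromosomes to microtubules, and the checkpoint kinases Bub1 and Bub1b hold back the anaphase-promoting complex until all are attached. Cdc20 and Ube2c then let that complex mark securin (Pttg1) and cyclin B for breakdown, separase (Espl1) frees the sister chromatids, and Prc1, Anln and Ect2 shape the central spindle and the cleavage furrow. In the adult mouse heart few cardiomyocytes divide, and most cycling cells are endothelial, fibroblast and immune cells. In whole-heart RNA, more cells of a type and more RNA per cell cannot be told apart.

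Many of these genes are known to be read late in the cell cycle through a TTTGAA element, the cell cycle gene homology region, with CCAAT boxes upstream of it. RefSeq start-site windows (GRCm38.p6, 250 bases before to 50 after the start, the first window of each gene) were found for 33 of the 40 members. TTTGAA or its reverse complement TTCAAA stood in 25 of the 33 windows (75.8%), against 4893 of all 27025 gene windows (18.1%). CCAAT or its reverse complement ATTGG stood in 24 of the 33 (72.7%), against 10248 of 27025 (37.9%). Both stood in 21 members (63.6%), against 1925 of all windows (7.12%). Matches were counted on both strands, may overlap, and are letters in a window and not measured binding. The last 150 bases before the start are shown for 6 members that differed between groups and hold both elements, then for Birc5, which differed and holds neither, and for Pttg1 and Cep55, which stayed flat between T3R1 and T1R1. Capitals mark TTTGAA and CCAAT matches in either orientation. The windows lie at chr10:69352913-69353062 on the minus strand (Cdk1), chr4:118437344-118437493 on the minus strand (Cdc20), chr7:135716380-135716529 on the minus strand (Mki67), chr11:99024190-99024339 on the minus strand (Top2a) and chr19:37376232-37376381 on the plus strand (Kif11). Those of the others lie at chr2:164769779-164769928 on the plus strand (Ube2c), chr11:117849087-117849236 on the plus strand (Birc5), chr11:43425982-43426131 on the minus strand (Pttg1) and chr19:38054834-38054983 on the plus strand (Cep55).
Cdk1: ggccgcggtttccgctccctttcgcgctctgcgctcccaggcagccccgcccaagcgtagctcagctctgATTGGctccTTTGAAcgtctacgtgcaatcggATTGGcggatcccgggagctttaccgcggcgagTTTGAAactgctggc
Cdc20: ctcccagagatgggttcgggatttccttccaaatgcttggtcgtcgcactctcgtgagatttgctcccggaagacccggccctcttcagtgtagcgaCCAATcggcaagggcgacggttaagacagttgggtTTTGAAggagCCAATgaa
Mki67: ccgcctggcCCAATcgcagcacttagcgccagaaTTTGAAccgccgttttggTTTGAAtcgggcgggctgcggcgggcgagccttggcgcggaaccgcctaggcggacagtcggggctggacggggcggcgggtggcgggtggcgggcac
Top2a: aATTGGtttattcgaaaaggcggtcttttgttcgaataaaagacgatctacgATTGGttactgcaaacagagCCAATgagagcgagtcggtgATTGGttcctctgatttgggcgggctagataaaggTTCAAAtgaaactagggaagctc
Kif11: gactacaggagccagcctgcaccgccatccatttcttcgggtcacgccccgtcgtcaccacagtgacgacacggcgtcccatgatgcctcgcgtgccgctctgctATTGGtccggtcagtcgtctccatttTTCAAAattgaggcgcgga
Ube2c: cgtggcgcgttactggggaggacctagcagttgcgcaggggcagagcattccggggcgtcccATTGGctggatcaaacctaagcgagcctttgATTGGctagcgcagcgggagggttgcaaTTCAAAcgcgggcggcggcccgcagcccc
Birc5: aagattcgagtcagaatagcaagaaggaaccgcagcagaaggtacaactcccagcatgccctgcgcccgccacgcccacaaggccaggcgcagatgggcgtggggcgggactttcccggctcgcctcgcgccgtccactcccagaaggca
Pttg1: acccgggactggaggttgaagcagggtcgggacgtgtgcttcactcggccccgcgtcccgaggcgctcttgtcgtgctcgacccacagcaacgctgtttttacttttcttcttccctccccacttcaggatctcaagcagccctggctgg
Cep55: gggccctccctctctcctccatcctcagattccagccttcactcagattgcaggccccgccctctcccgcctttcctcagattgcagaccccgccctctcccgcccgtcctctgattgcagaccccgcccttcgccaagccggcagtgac
Cdk1 holds TTTGAA at 15 and 71 bases before the start (positions -15 and -71) and Cdc20 at -18, and in Kif11 and Ube2c the reverse complement starts at -19 and -29. In Cep55 the match lies at position 25 after the start and is outside the stretch shown.

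The 16 arrays lay on 2 slides, with T3R1 and control on slide 1 and T1R1 and T2R1 on slide 2. The comparisons within a slide are thus that of T3R1 with control and that of T2R1 with T1R1, and in every other comparison slide and exposure cannot be told apart. Brightness at the 75th percentile was 307 to 369 scanner units in T1R1, 283 to 348 in T2R1, 337 to 407 in T3R1 and 257 to 273 in control replicates 2 to 4, and it was 547 in control replicate 1. Control replicate 1 stood apart from its group in the mitosis and spindle genes as well. It was above control replicates 2 to 4 in 35 of the 37 members, by a median of 3.77 on the log2 scale. It lay above all 4 T3R1 arrays in 19 members, within their range in 15 and below them in 3 (Cep55, Ube2c and Pttg1). The counts of members that passed against control are therefore given with and without that array.

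**Figure D1:**
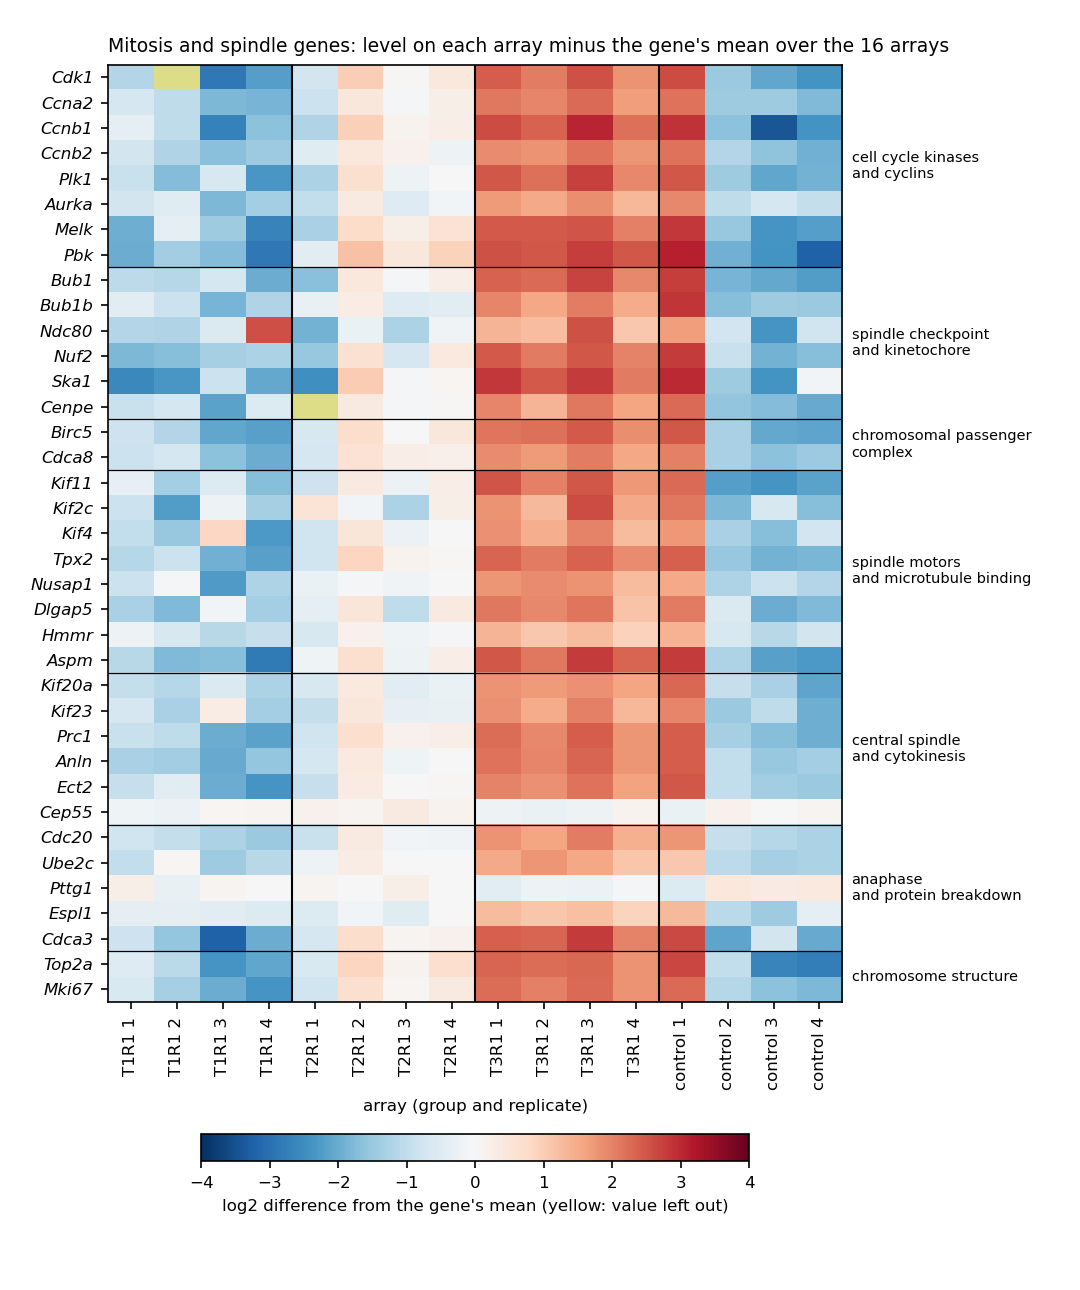
Level of the 37 mitosis and spindle genes tested on each of the 16 arrays (columns, by group and replicate) as a log2 difference from the gene's mean over the arrays, with red above and blue below that mean and genes ordered by role. The T3R1 columns and the column of control replicate 1 are red for 35 of 37 genes or more, T2R1 is near the mean, and T1R1 and control replicates 2 to 4 are mostly blue.

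Measured as the difference from each gene's own mean, the median of the 37 members was -1.64 to -0.86 on the T1R1 arrays, -0.71 to 0.44 on the T2R1 arrays, 1.69 to 2.27 on the T3R1 arrays and -1.77 to -1.29 on control replicates 2 to 4, and it was 2.28 on control replicate 1. The T3R1 arrays therefore lay above all other arrays but 1. T3R1 arrays were also close to each other, with a median SD over members of 0.26, against 0.57 in T2R1, 0.65 in T1R1, 1.93 in the 4 controls and 0.35 in controls 2 to 4. All 37 members were well above background on every T3R1 array with a value, against 27 in T2R1, 13 in T1R1 and 20 in control. The SDs of T2R1, T1R1 and control thus rest partly on values at background. Melk, Bub1, Bub1b, Ndc80, Nuf2, Ska1, Kif11, Kif2c, Kif4 and Dlgap5 passed the filter through T3R1 alone. Their detection on every T3R1 array was fixed by the filter, so the count in T3R1 is no result for them.

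Most members differed between 3 days and 1 day of exposure. Of the 37 members 34 rose in T3R1 against T1R1 and 0 fell (limma, adjusted p from 0.00142 to 0.0179), where 7.63% of all features rose and 15.3% fell. The same 34 had no overlap between the 4 T3R1 and the 4 T1R1 arrays, which held for 9.53% of all features in that direction and for 16.6% in the other, where 0 members lay. The median log2 fold change of the 37 was 3.18 (range -0.24 to 4.56), against -0.07 over all features. In T1R1 7 members were well above background on 0 arrays, 17 on some and 13 on all with a value, so many folds against T1R1 rest partly on values at background. With the 7 set at their lower bound, the median was 2.84. The 3 that did not pass were Ndc80, Cep55 and Pttg1. The members that entered the tests through T3R1 alone, all but Ndc80, are among the 34. For them the filter itself required high values in T3R1. T3R1 and T1R1 were on different slides. Without control replicate 1 the count was again 34 higher and 0 lower, where 11.1% of all features rose and 20.3% fell.

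T3R1 against T2R1, also across slides, had a median of 2.01, and 19 members rose and 0 fell, where 6.57% of all features rose and 20.4% fell. The arrays did not overlap in 35 members that were higher, against 12.4% of features, and in 1 that was lower, Pttg1, against 25.6%. The spread in this fit is shared by all groups. Without control replicate 1 all 37 passed, 35 higher and 2 lower (10.8% and 25.9% of all features), the lower ones being Cep55 at -0.33 and Pttg1 at -0.32. Without T2R1 replicate 1 or without T3R1 replicate 1 only 2 passed.

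Within slide 1, T3R1 against control rested on control replicate 1. With all 4 controls the median log2 fold change was 2.50 and 35 members had an unadjusted p under 0.05, but 1 passed after adjustment, Ube2c, where 0.503% of all features rose and 0.19% fell. Ube2c was also the 1 member whose T3R1 and control arrays did not overlap, which held for 3.18% of features, and 0 members lay below without overlap, against 4.39% of features. Without control replicate 1 the median was 3.49, or 3.17 with 11 members at their lower bound, and 35 members rose and 1 fell. Of all features 10.2% rose and 19.2% fell in that fit. The member that fell was Pttg1, and Cep55 did not pass (adjusted p = 0.15).

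Between T2R1 and T1R1, the other comparison within a slide, 0 members passed in limma, and 9 had an unadjusted p under 0.05. Of all features 0% passed. The median was 1.19, or 0.94 with 7 members at their bound, 36 of 37 fold changes were above 0, and in 12 members the T2R1 arrays lay above all T1R1 arrays, against 5.09% of features. Against control, across slides, 0 members passed in T2R1 and 0 in T1R1, and 0 had an unadjusted p under 0.05 in either. The median log2 fold change was 0.51 in T2R1 and -0.67 in T1R1, or -0.57 in T1R1 with 7 members at their bound. All-feature shares were 14.8% higher and 3.59% lower in T2R1, and 7.75% higher and 2.1% lower in T1R1. The arrays of 0 members did not overlap, against 18.1% of features higher and 6.34% lower in T2R1, and 9.82% higher and 4.06% lower in T1R1. Without control replicate 1, 26 members rose and 0 fell in T2R1 (median 1.30, or 1.17 with 11 at their bound; 15% and 9.38% of features). In T1R1 1 passed as higher, Kif11, and 1 fell, Pttg1 (median 0.22; 8.2% and 9.67% of features). Kif11 was then well above background on 0 arrays of either group, so that its fitted difference sets background against background and is given no fold. The F test over all 4 groups called 34 of the 37, against 26.9% of features, and Ndc80, Cep55 and Pttg1 did not pass. Without control replicate 1 it called 36, against 48.8% of features, and Cep55 did not pass.

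**Figure D2:**
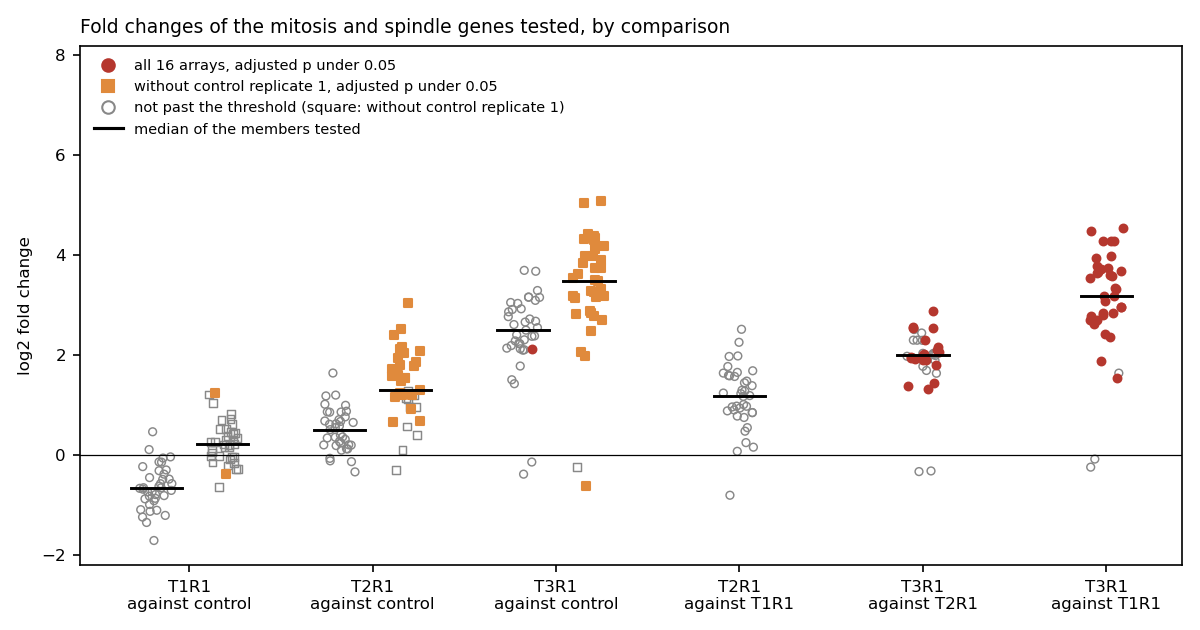
Log2 fold change (y axis) of each of the 37 members tested in the 6 comparisons (x axis), as circles for all 16 arrays and, where the controls enter, as squares without control replicate 1. Filled symbols passed an adjusted p of 0.05 and bars are medians: T3R1 against T1R1 has 34 filled circles around a median of 3.18, and T3R1 against control has 1 filled circle and 36 filled squares.

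The cell cycle kinases and cyclins moved together. All 8 of them measured (Cdk1, Ccna2, Ccnb1, Ccnb2, Plk1, Aurka, Melk and Pbk) rose in T3R1 against T1R1, with a median log2 fold change of 3.85, and 4 rose against T2R1. Cdk1, the kinase that starts mitosis, was at -3.51, -5.19 and -4.53 in T1R1, at -3.06, -1.34, -2.30 and -1.91 in T2R1, at 0.09, -0.29, 0.21 and -0.55 in T3R1, and at 0.28, -3.83, -4.41 and -4.72 in control hearts. The spot of T1R1 replicate 2 was marked as an outlier by the scanner software and left out, so that group has 3 values. Every T3R1 heart lay above every T1R1 and T2R1 heart and above control replicates 2 to 4, and control replicate 1 lay above all T3R1 hearts. Cdk1 was well above background on 1 of the 3 T1R1 arrays, so the size of its fold against T1R1 is uncertain. Its log2 fold change was 4.28 ± 0.93 (SE) in T3R1 against T1R1 (adjusted p = 0.00568), and it was 3.04 ± 0.86 higher than in control (adjusted p = 0.0844), or 4.19 without control replicate 1 (adjusted p = 8.45e-05). A second Cdk1 probe that was kept did not follow: its log2 fold change was -0.62 in T3R1 against T1R1 (adjusted p = 0.137 in the fit over all probes) and -1.53 against T2R1 (adjusted p = 0.00161). The other probe was well above background on 0 arrays.

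Ccnb1, the cyclin B partner of Cdk1, was at -2.68, -3.30, -4.99 and -3.90 in T1R1, at -3.48, -1.32, -2.13 and -2.01 in T2R1, at 0.33, 0.10, 0.77 and -0.08 in T3R1, and at 0.61, -3.93, -5.68 and -4.68 in control hearts. The T3R1 hearts were again above all but control replicate 1, and T2R1 overlapped T1R1. Ccnb1 was 15.9-fold higher in T3R1 than in T1R1 (SE 1.01 on the log2 scale, adjusted p = 0.0119). Its other 2 probes were higher too, by 1.26 and 2.33, and did not pass (adjusted p = 0.254 and 0.0835).

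Plk1, a kinase of spindle poles and kinetochores, was at -1.75, -2.57, -1.50 and -3.18 in T1R1, at -2.11, -0.21, -1.05 and -0.87 in T2R1, at 1.63, 1.35, 1.89 and 1.08 in T3R1, and at 1.64, -2.27, -2.92 and -2.72 in control hearts. Its T3R1 values shared no range with T1R1 or T2R1, and control replicate 1 fell among them. It rose 13.3-fold in T3R1 against T1R1 (3.74 ± 0.80, adjusted p = 0.00445) and by 2.54 ± 0.80 against T2R1 (adjusted p = 0.0291). Aurka, the spindle pole kinase, averaged -1.98 ± 0.59 in T1R1, -1.20 ± 0.57 in T2R1, 0.71 ± 0.24 in T3R1 and -1.07 ± 1.42 in control (SD, n = 4 each). In control replicates 2 to 4 alone it averaged -1.78. Aurka was 6.48-fold higher in T3R1 than in T1R1 (limma, adjusted p = 0.00302). Pbk, a mitotic kinase, was fitted 4.56 ± 0.98 higher in T3R1 than in T1R1 (adjusted p = 0.00465), where it was well above background on 1 of 4 T1R1 arrays, so the size is uncertain. In T2R1 against T1R1 its difference was 2.52 ± 0.98, which did not pass (adjusted p = 0.635).

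**Figure D3:**
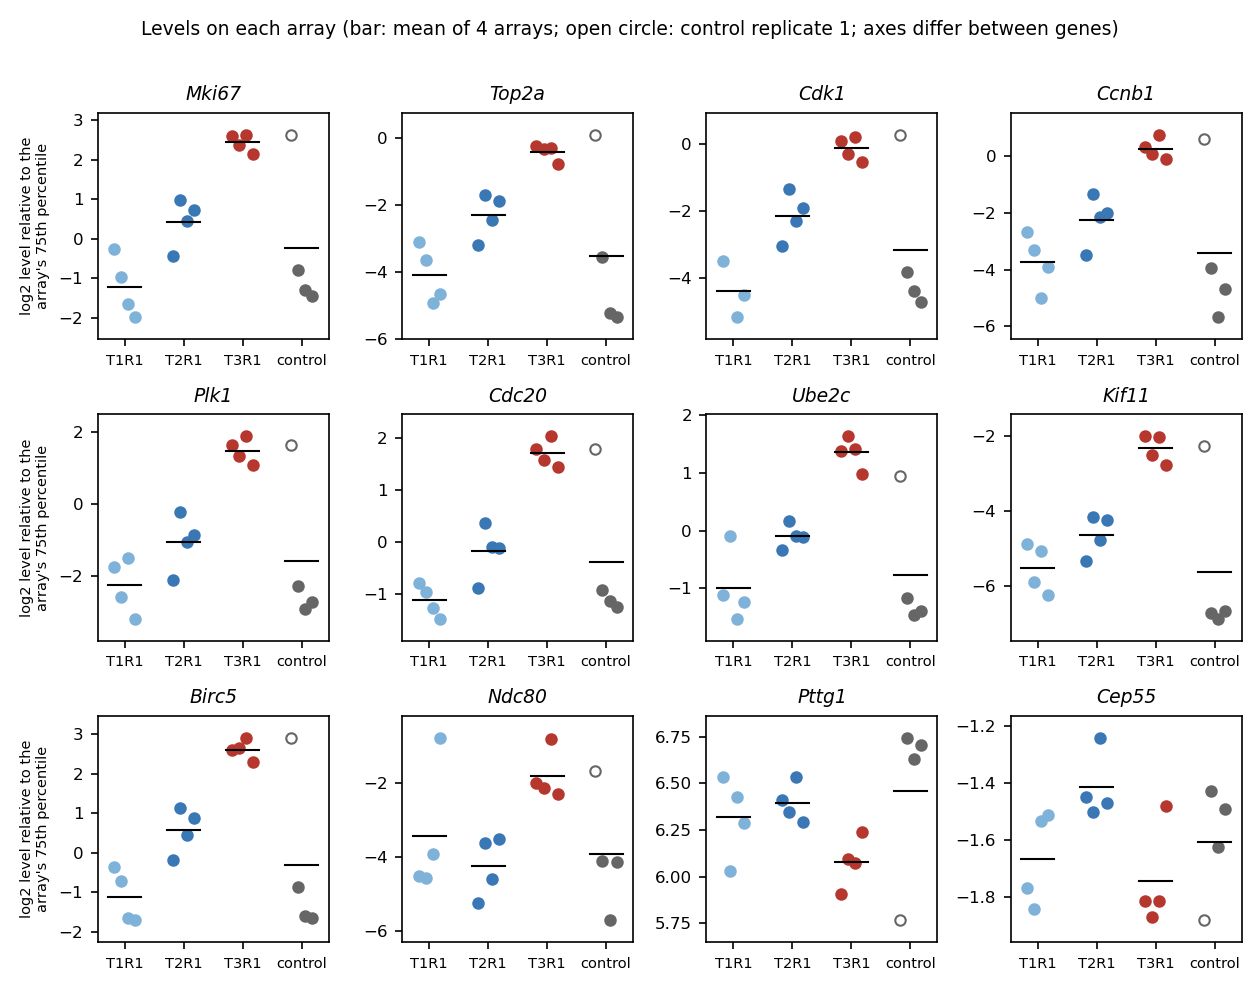
Log2 level relative to the array's 75th percentile (y axis, range differing by gene) of 12 members in T1R1, T2R1, T3R1 and control hearts, with a point per array, a bar at the group mean and an open circle for control replicate 1. In Mki67, Top2a, Cdk1, Ccnb1, Plk1, Cdc20, Ube2c, Kif11 and Birc5 the 4 T3R1 points lie above all T1R1 and T2R1 points, whereas Pttg1 and Cep55 span less than 1 log2 unit over all arrays.

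At the kinetochore, 5 of the 6 members measured rose in T3R1 against T1R1 and 3 rose against T2R1. Ndc80 was the 1 that did not pass against T1R1. Bub1b, a checkpoint protein, was at -3.81, -4.27, -5.26 and -4.61 in T1R1, at -3.69, -3.11, -3.92 and -3.82 in T2R1, at -1.46, -1.84, -1.36 and -1.91 in T3R1, and at -0.53, -5.10, -4.81 and -4.90 in control hearts. The T3R1 hearts formed a group of their own between control replicate 1 and all the rest. Bub1b was 7.19-fold higher in T3R1 than in T1R1 (2.85 ± 0.76, adjusted p = 0.0156), with 2 of 4 T1R1 arrays well above background. Ndc80, which binds microtubule ends, was at -4.51, -4.56, -3.92 and -0.76 in T1R1, at -5.24, -3.62, -4.60 and -3.50 in T2R1, at -1.98, -2.12, -0.81 and -2.28 in T3R1, and at -1.67, -4.11, -5.72 and -4.13 in control hearts. T1R1 replicate 4 lay above all T3R1 hearts, and control replicate 1 lay within their range. The log2 fold change of T3R1 against T1R1 was 1.64 ± 0.87 (adjusted p = 0.189), and without T1R1 replicate 4 it was 2.53 (adjusted p = 0.0309). Ska1, of the kinetochore coupling complex, was well above background on 0 T1R1 arrays and 4 T3R1 arrays. It passed in T3R1 against T1R1 in the limma fit, which uses its values at background (adjusted p = 0.00407). With T1R1 set at its bound, which was not itself tested, Ska1 was at least 6.08-fold higher in T3R1. Nuf2, the partner of Ndc80, was at least 7.09-fold higher on the same footing, and Bub1 at least 4.70-fold.

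Of the chromosomal passenger complex, which corrects attachments and later guides cytokinesis, Birc5 and Cdca8 were measured and both rose in T3R1 against T1R1. Birc5, also called survivin, was at -0.37, -0.72, -1.64 and -1.72 in T1R1, at -0.19, 1.15, 0.46 and 0.89 in T2R1, at 2.60, 2.65, 2.90 and 2.31 in T3R1, and at 2.91, -0.86, -1.60 and -1.66 in control hearts. Here T2R1 also lay above all T1R1 hearts, and control replicate 1 was level with the highest T3R1 heart. Birc5 rose 13.2-fold in T3R1 against T1R1 (3.73 ± 0.77, adjusted p = 0.00365). Its 2 other probes were higher in T3R1 than in T1R1 by 2.68 and 3.90, and both passed. Aurkb, the kinase of this complex, gave no measurement.

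All 8 spindle motors and microtubule-binding proteins measured rose in T3R1 against T1R1 (median 2.96), and 4 rose against T2R1. Kif11, the kinesin that pushes spindle poles apart, was at -4.88, -5.90, -5.08 and -6.25 in T1R1, at -5.35, -4.18, -4.77 and -4.26 in T2R1, at -2.02, -2.51, -2.05 and -2.79 in T3R1, and at -2.27, -6.73, -6.88 and -6.67 in control hearts. It was well above background on 0 T1R1 arrays, and the only control array on which it was is replicate 1. Kif11 passed in T3R1 against T1R1 in the limma fit, which uses its values at background (adjusted p = 0.0107). With T1R1 set at its bound, Kif11 was at least 3.72-fold higher in T3R1. Aspm, a spindle pole protein, was at least 9.44-fold higher, Dlgap5 at least 2.52-fold and Kif2c, which takes microtubules apart, at least 2.24-fold. A second Dlgap5 probe had a log2 fold change of 2.59 and did not pass (adjusted p = 0.124 in the fit over all probes). That of Kif2c had 3.06 and passed (adjusted p = 0.0201 in the same fit). Nusap1, which bundles spindle microtubules, rose 6.93-fold (2.79 ± 0.53, adjusted p = 0.00221). Tpx2, which activates Aurka, rose by 3.69 ± 0.74 (adjusted p = 0.00316) on its brighter probe, while the other was at 0.55 and did not pass (adjusted p = 0.301). In Hmmr the difference was smaller, at 1.88 ± 0.41 (adjusted p = 0.00524).

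Of the 6 central spindle and cytokinesis genes, 5 rose in T3R1 against T1R1 and 4 against T2R1. Prc1, which crosslinks the central spindle, was at -1.33, -1.47, -2.44 and -2.58 in T1R1, at -1.25, 0.20, -0.29 and -0.19 in T2R1, at 1.78, 1.47, 1.97 and 1.33 in T3R1, and at 1.97, -1.78, -2.16 and -2.40 in control hearts. Groups T1R1, T2R1 and T3R1 did not overlap, and control replicate 1 equalled the highest T3R1 heart to 2 decimals. Prc1 was higher in T3R1 than in T1R1 by 3.59 ± 0.73 (adjusted p = 0.0035). Anln, the furrow scaffold anillin, had the smallest adjusted p of the members in that comparison, 0.00142, with a log2 fold change of 3.62 ± 0.64. Its levels averaged -2.33 ± 0.33 in T1R1, -0.88 ± 0.46 in T2R1, 1.29 ± 0.25 in T3R1 and -1.12 ± 1.86 in control (SD, n = 4 each). In control replicates 2 to 4 alone the average was -2.05.

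Cep55, which recruits the machinery of the final cut between daughter cells, did not pass in T3R1 against T1R1. It was at -1.77, -1.84, -1.53 and -1.51 in T1R1, at -1.45, -1.50, -1.24 and -1.47 in T2R1, at -1.81, -1.87, -1.81 and -1.48 in T3R1, and at -1.88, -1.43, -1.62 and -1.49 in control hearts. T3R1 overlapped every other group, T2R1 lay just above all T1R1 hearts, and control replicate 1 was here the lowest control. The log2 fold change was -0.08 ± 0.12 in T3R1 against T1R1 (adjusted p = 0.678), with the sign turned to 0.32 when arrays were scaled to their median and to 0.19 on the authors' deposited values, and -0.33 ± 0.12 against T2R1 (adjusted p = 0.0594).

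Among the genes of anaphase and protein breakdown, 4 of 5 rose in T3R1 against T1R1 and 3 of 5 against T2R1. Cdc20, the activator of the anaphase-promoting complex, was at -0.79, -0.97, -1.28 and -1.49 in T1R1, at -0.90, 0.37, -0.10 and -0.13 in T2R1, at 1.79, 1.58, 2.03 and 1.43 in T3R1, and at 1.77, -0.93, -1.15 and -1.26 in control hearts. T2R1 replicate 1 lay within the T1R1 range and the other T2R1 hearts above it, with T3R1 higher again. Cdc20 was 7.16-fold higher in T3R1 than in T1R1 (2.84 ± 0.52, adjusted p = 0.00178), and by 1.90 ± 0.52 than in T2R1 (adjusted p = 0.0153), the smallest adjusted p among members there.

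Ube2c, the ubiquitin-conjugating enzyme of that complex, was at -1.13, -0.09, -1.54 and -1.25 in T1R1, at -0.33, 0.16, -0.10 and -0.11 in T2R1, at 1.39, 1.64, 1.43 and 0.98 in T3R1, and at 0.95, -1.17, -1.46 and -1.39 in control hearts. It is the 1 measured member in which control replicate 1 stayed just below every T3R1 heart while standing high among the controls. Ube2c rose by 2.13 ± 0.44 in T3R1 against control (adjusted p = 0.0443), and by 2.70 without control replicate 1 (adjusted p = 5.91e-05). That call was lost when any array other than control replicate 1 or T1R1 replicate 2 was left out, with adjusted p between 0.0512 and 0.174. A second Ube2c probe was higher in T3R1 than in control by 1.97 and did not pass. Its adjusted p was 0.0744 in the fit over all probes, where the brighter probe had 0.0457. Cdca3, which triggers entry into mitosis, was 19.4-fold higher in T3R1 than in T1R1 (4.28 ± 0.82, adjusted p = 0.00239), and Espl1, separase, rose by 1.54 ± 0.41 (adjusted p = 0.0154).

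Pttg1, securin, the inhibitor of separase, did not rise in T3R1. It was at 6.53, 6.03, 6.43 and 6.29 in T1R1, at 6.41, 6.34, 6.54 and 6.29 in T2R1, at 5.91, 6.10, 6.07 and 6.24 in T3R1, and at 5.76, 6.74, 6.63 and 6.71 in control hearts. T3R1 lay below T2R1 and below control replicates 2 to 4, and control replicate 1 was the lowest array of all. The log2 fold change was -0.24 ± 0.18 in T3R1 against T1R1 (adjusted p = 0.369) and -0.38 ± 0.18 against control (adjusted p = 0.237), or -0.61 without control replicate 1 (adjusted p = 0.0021). Its second probe was lower as well, by -0.38 in T3R1 against T1R1, and did not pass (adjusted p = 0.197).

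Both genes grouped under chromosome structure rose in T3R1 against T1R1. Mki67, whose protein coats mitotic chromosomes, was at -0.25, -0.98, -1.64 and -1.98 in T1R1, at -0.44, 0.99, 0.45 and 0.73 in T2R1, at 2.61, 2.38, 2.62 and 2.16 in T3R1, and at 2.64, -0.79, -1.29 and -1.45 in control hearts. Control replicate 1 was the highest of the 16 hearts, just above the T3R1 hearts, and T2R1 stood between T3R1 and T1R1 with replicate 1 inside the T1R1 range. Mki67 was 12.6-fold higher in T3R1 than in T1R1 (3.65 ± 0.71, adjusted p = 0.0025), and its second probe gave 3.54 (adjusted p = 0.00306). Against control the difference was 2.66 ± 0.71 (adjusted p = 0.0705), or 3.62 without control replicate 1 (adjusted p = 8.02e-05). Top2a, the topoisomerase that untangles sister chromatids, was at -3.10, -3.65, -4.94 and -4.65 in T1R1, at -3.19, -1.72, -2.44 and -1.90 in T2R1, at -0.26, -0.34, -0.30 and -0.77 in T3R1, and at 0.09, -3.57, -5.23 and -5.35 in control hearts. The order of the groups was that of Mki67. Top2a rose 12.7-fold in T3R1 against T1R1 (3.67 ± 0.90, adjusted p = 0.00997), with 2 of 4 T1R1 arrays well above background.

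Other genes of the cell cycle were read from lists written with earlier results of these data known. Beside their counts, 7.63% of all features rose and 15.3% fell in T3R1 against T1R1. Against control 0.503% of all features rose and 0.19% fell, or 10.2% and 19.2% without control replicate 1. Of 60 other mitosis genes measured of 66, 45 rose and 1 fell in T3R1 against T1R1 (median log2 fold change 2.08), among them Iqgap3 by 3.06 ± 0.47 (adjusted p = 0.000536). Against control 1 of the 60 rose, the spindle protein gene Psrc1 (2.15 ± 0.45, adjusted p = 0.0443), and without control replicate 1 49 rose and 0 fell. Of 36 DNA replication genes measured, 23 rose and 1 fell in T3R1 against T1R1 (median 0.91), 0 passed against control in limma (23 at an unadjusted p under 0.05), and 26 rose and 2 fell without control replicate 1. Tk1, the thymidine kinase of S phase, rose by 2.55 ± 0.43 in T3R1 against T1R1 (adjusted p = 0.000992).

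Lists of G1 cyclins and kinases, cell cycle inhibitors and cell cycle transcription factors were also counted. Over all features, 7.63% rose and 15.3% fell in T3R1 against T1R1. Of 7 G1 cyclins and kinases measured 0 rose and 1 fell in T3R1 against T1R1 (median 0.20), the cyclin Ccnd2, by -0.38 ± 0.10 (adjusted p = 0.0177). Cell cycle inhibitors had 3 of 16 higher and 0 lower (median 0.22). Of the 21 cell cycle transcription factors 4 rose and 3 fell (median 0.14). E2f7 had the smallest p of that list in limma and fell, by -0.96 ± 0.20 (adjusted p = 0.0044), with no overlap between the T3R1 and T1R1 arrays. Foxm1 and Mybl2, known drivers of late cell cycle promoters, were among those that rose in T3R1 against T1R1, by 1.55 ± 0.41 (adjusted p = 0.0158) and 1.03 ± 0.28 (adjusted p = 0.0168). Foxm1 was at -2.34, -2.60, -2.83 and -2.67 in T1R1, at -2.16, -1.54, -1.99 and -1.78 in T2R1, between -1.32 and -0.82 in T3R1, and at -0.97, -2.54, -3.59 and -3.42 in control hearts. Its groups stood in the order T1R1, T2R1 and T3R1 with no overlap, and control replicate 1 was within the T3R1 range.

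**Figure D4:**
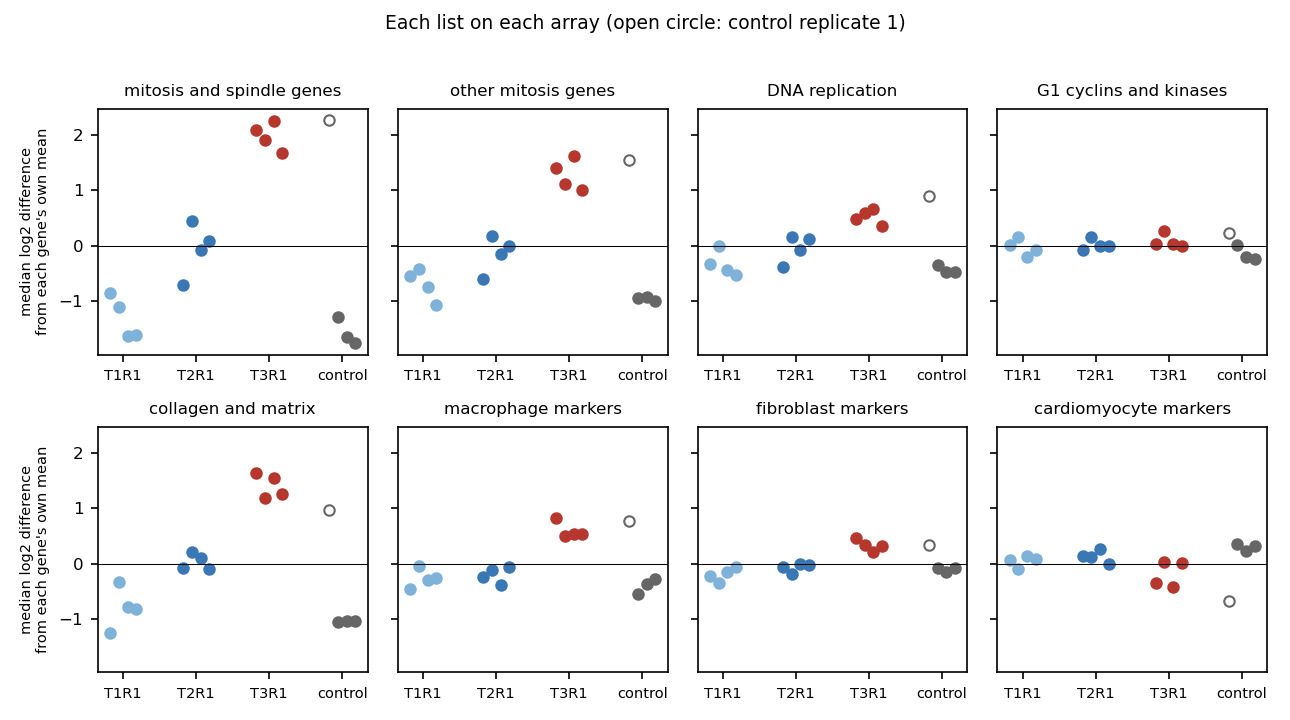
Median over the genes of a list of the log2 difference from each gene's own mean (y axis) on each array in T1R1, T2R1, T3R1 and control, with an open circle for control replicate 1. The mitosis and spindle genes, the other mitosis genes, DNA replication, collagen and matrix and macrophage markers are high on T3R1 and on control replicate 1, G1 cyclins and kinases stay near 0, and cardiomyocyte markers are lowest on control replicate 1.

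Among the lists of matrix genes and cell type markers, collagen and matrix genes and macrophage markers were high on T3R1 arrays and on control replicate 1, as the mitosis genes were. Not all other marker lists had this pattern. Over all features, 7.63% rose and 15.3% fell in T3R1 against T1R1, and 0.503% rose and 0.19% fell in T3R1 against control. Without control replicate 1 the shares against control were 10.2% and 19.2%. All 12 collagen and matrix genes rose in T3R1 against T1R1 (median 2.22), and 9 of the 12 rose against control, Col1a1 among them by 2.30 ± 0.42 (adjusted p = 0.0275). Their levels summed on the linear scale, in units of the array's 75th percentile, were 362 to 481 in T1R1, 558 to 649 in T2R1 and 926 to 1204 in T3R1. In control they were 347 to 825, with replicate 1 highest. Of 8 macrophage markers 6 rose and 0 fell in T3R1 against T1R1 (median 0.83), and 0 passed against control in limma (6 at an unadjusted p under 0.05), or 7 without control replicate 1. Their summed level was 51.0 to 60.5 in T1R1, 51.5 to 62.5 in T2R1, 76.3 to 95.5 in T3R1 and 46.0 to 97.8 in control, again highest in replicate 1. Of 8 fibroblast markers 5 rose in T3R1 against T1R1 (median 0.46), with summed levels of 213 to 259 in T1R1, 261 to 300 in T2R1, 349 to 388 in T3R1 and 268 to 338 in control. Col1a1 is also among these fibroblast markers, so their counts and sums are not independent of those of the collagen and matrix genes. Every T3R1 array lay above every T1R1 array in Col1a1, which is thus part of the rise in the fibroblast sum. The fibroblast sum without Col1a1 was not tested.

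Cardiomyocyte markers, 8 of 8 measured and well above background, had summed levels of 5833 to 6652 in T1R1, 6332 to 7423 in T2R1, 4574.5 to 6539 in T3R1 and 3748.5 to 8143 in control, with control replicate 1 lowest. In limma 0 of 8 passed in T3R1 against T1R1 (0 at an unadjusted p under 0.05) or against control (1 at that p). Without control replicate 1, 6 fell against control, where 19.2% of all features fell. Of 8 mural cell markers 3 rose and 0 fell in T3R1 against T1R1, with summed levels of 70.8 to 83.2 in T1R1, 85.9 to 102 in T2R1, 118 to 132 in T3R1 and 94.7 to 119 in control. Those of T3R1 lay above all T1R1 and T2R1 hearts. The counts of the other marker lists are for T3R1 against T1R1, where 7.63% of all features rose and 15.3% fell. A single call in lists this short is near those shares. In nerve and Schwann cell markers 3 of 8 rose and 0 fell, and in adipocyte markers 2 of 8 rose and 0 fell. In erythroid precursor markers 1 of 7 rose and 0 fell, and in T cell markers 1 of 7 rose and 1 fell. Endothelial, neutrophil and liver markers had 0 higher and 1 lower each, of 8, 8 and 6, and B cell and epicardial markers had 0 passing in limma of 5 and 8, with 1 and 2 at an unadjusted p under 0.05. Thymus markers, of interest because thymocytes divide, had 0 of 4 higher and 2 lower. In T1R1 replicate 1 their summed level was 5.83, against 1.16 to 1.54 in the other T1R1 hearts, and that of B cell markers was 8.50, against 1.67 to 2.29. Without both that heart and control replicate 1, 34 mitosis and spindle genes passed in T3R1 against T1R1. No marker listed for any cell type was below background on every array. The part of macrophages, fibroblasts or any other cell type in the differences of the mitosis genes was not tested.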

How the data were processed

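RNA of 16 individual mouse hearts was read on one-colour Agilent arrays, 1 array per heart and 4 per group. The authors deposited each array's scanner output, and per the file headers its processed intensity was made by Feature Extraction 10.7.3.1, which subtracts background, and its other columns mark spots that are outliers or well above background. The authors' deposited value table holds log2 values that are quantile-normalized between arrays and rank as the mean signal does; its method is not stated in the sources here, and it served as an alternative.

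For the values reported, log2 of the processed intensity minus the array's 75th percentile was taken, control and outlier spots were left out, and spots of 1 probe were averaged. Of 55681 probes 31390 were kept, those well above background throughout some group, and the brightest probe per gene name gave 22648 features. Groups were compared with limma 3.58.1 in R 4.3.3 over all features, two-sided, with Benjamini-Hochberg adjustment, 0.05 as threshold and 12 residual degrees of freedom; ± after a fold change is its SE. "At least" folds set the group with no array well above background at the lowest signal that was well above it. P-values measure the spread between hearts, and the number of arrays limits the precision. The members and the other gene lists were chosen with earlier results of these data known. The genes given values are 19 members from a fixed list and from the smallest p per comparison, Pttg1 and a few members chosen after their values were seen, and for other lists the 3 with the smallest p. The fit was tested on simulated data. Slide, background correction, scaling, filter, probe rule, array weights and single arrays were varied.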

Additional observations from a re-analysis of the deposited data

Results flagged for a closer look

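In 19 genes and the groups with 4 values, which left out Cdk1 in T1R1, the gap between the highest or lowest heart and the nearest other was set against the group's whole range. Of the 75 sets 13 had a ratio above Dixon's critical value. Chance gives that in about 5 percent of independent sets. These genes were read on the same arrays and move together, so the count cannot be set against that share. In 10 of the 13 the heart apart was control replicate 1, higher than the other controls. The ratio was 0.838 for Mki67, 0.858 for Plk1, 0.935 for Bub1b, 0.953 for Kif11 and 0.857 for Prc1. For Cdc20 it was 0.892, for Anln 0.862, for Aurka 0.893, for Ube2c 0.878 and for Nusap1 0.861. The other 3 were Top2a in T3R1, where replicate 4 was lowest (0.836), Ndc80 in T1R1, where replicate 4 was highest (0.831), and Cep55 in T3R1, where replicate 4 was highest (0.851).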

How the results depend on the processing

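In T3R1 against T1R1 34 members passed under every alternative run but 1, and 11 of 13 with probes well above background on all 16 arrays, as in the F test. The 34 were not always the same members, since Ndc80 was among them without T1R1 replicate 4. T3R1 against control had 1 call, with 3 under normexp, 3 on the authors' deposited values, 4 of 13 on probes well above background on all 16 arrays, 4 with a trended robust prior, 36 with array weights, 36 without both control replicate 1 and T1R1 replicate 1, and 30 at an adjusted p of 0.1. It had 0 with quantile scaling, median scaling, no filter, the mean over probes, only the 2 groups, only the arrays of the shared slide, or the replicate block. T3R1 against T2R1 had 19 calls, with 33 under normexp, 32 under median scaling, 34 on the authors' values, 9 with no filter, 8 of 13 on probes above background on all arrays, 37 with only the 2 groups, 37 with array weights, 37 without both arrays, and 33 at 0.1. T2R1 against control had 0, with 28 under array weights and 25 without both arrays. T1R1 against control had 0, with 3 under median scaling, 1 on the authors' values and 2 without both arrays. Leaving out 1 array gave 0 to 2 calls in T1R1 against control, 0 to 26 in T2R1 against control, 0 to 36 in T3R1 against control, 0 in T2R1 against T1R1, 2 to 37 in T3R1 against T2R1, 34 in T3R1 against T1R1 and 20 to 36 in the F test; the highest count in each that varied came without control replicate 1. Median scaling moved the median of all features in T3R1 against T1R1 to 0.33, against -0.07, and that of the members to 3.59. Of 770 alternative values of called genes 0 reversed and 74 lost the call; the cause was not tested. Replicate numbers did not pair the hearts: 5 of 16 arrays correlated best with their own number, and with the replicate block 16 members passed in T3R1 against T2R1 and 33 in the F test. Dim probes limit what T1R1 and the controls can show.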
